A study of Homo sapiens with 22 samples.

Results

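Exon usage in METTL14 knockdown was examined in HEK293T cells, a human embryonic kidney cell line, across all 2635 of the 2635 exonic bins that the authors listed for genes carrying N6-methyladenosine (m6A) sites. Every listed bin was taken, so no measured value chose among the listed bins here. The authors' rule for listing a bin is not given, so every share of all bins is a share of their list. An exonic bin is a segment between neighbouring exon ends of a gene model. In DEXSeq, which the sample descriptions name, its usage is its abundance relative to the rest of that model. The sources used here do not state whether the deposited ratios were corrected for the level of the whole gene. The bins belonged to 636 gene models: 510 models of 1 gene, with 1606 bins, and 126 models that joined several genes under 1 name, with 1029 bins. The median bin was 157 bp long, in a range of 1 to 10747 bp.

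The series held 22 libraries, of which 12 were RNA-seq and 10 were crosslinking libraries not analysed here. METTL14 knockdown, METTL3 knockdown and the METTL-series control, labelled wild type, had 2 RNA-seq libraries each. HNRNPG knockdowns KD1 and KD2 and a separate HNRNPG-series control, also labelled wild type, had 2 libraries each as well. The labels do not give the knockdown reagent or state whether both libraries of a group were grown separately, and the level of METTL14 in these libraries was not analysed here, so the knockdown was not checked.

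METTL14 is the RNA-binding partner of METTL3, the catalytic subunit of the complex that writes m6A on nascent transcripts. The mark is enriched in long internal exons and around stop codons, and it is read by YTH-domain proteins and by nuclear RNA-binding proteins, some of which act in splicing. Base methylation can also alter local RNA structure and expose sites for proteins such as HNRNPG, the nuclear RNA-binding protein encoded by RBMX.

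All values are log2 of usage in knockdown over control, so a positive value is higher usage in the knockdown. The authors' deposited table held 1 value per bin and comparison, without library values, errors or p-values used here, so no bin has a replicate check and every result is a description of the deposited values. The depth behind each bin is unknown. METTL14 and METTL3 knockdown were set against the same control libraries, while the HNRNPG knockdowns had their own. Coordinates are hg19. Bins are numbered in genome order, so that low numbers lie at the 3' side of genes on the minus strand. In a joined model, a difference in exon usage and a difference in the relative levels of the joined genes cannot be told apart. Ribosomal protein genes, ACTG1 and HMGN2 have near-identical copies elsewhere in the genome, and no source used here says how the authors counted reads that copies share.

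Most bins lay close to 0 in METTL14 knockdown. The median was -0.04, the middle of the distribution ran from -0.26 to 0.13 (25th to 75th percentile), and 749 bins (28.4%) lay within 0.1 of 0. Usage was higher in 1143 bins, lower in 1482 (56.2%) and exactly 0 in 10. A size of at least 0.5 was reached by 144 bins with higher usage (5.46% of all bins) and by 278 with lower usage (10.6%), which together made 422 bins (16.0%). A size of 1 was reached by 23 bins with higher usage (0.873%) and 45 with lower usage (1.71%), together 2.58%. In METTL3 knockdown 7.63% of bins were past 0.5 with higher and 14.8% with lower usage (22.4% in all), and 1.78% and 3.95% were past 1 (5.73% in all). The spread over bins was 0.43 in METTL14 and 0.61 in METTL3 knockdown (SD over 2635 bins, which are not replicates). The plot of all bins shows the narrower METTL14 distribution with its longer shoulder below 0. The values nearest the limit were exactly 0.5 inside and 0.499 outside, so the limit separates no distinct groups of bins.

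**Figure D1:**
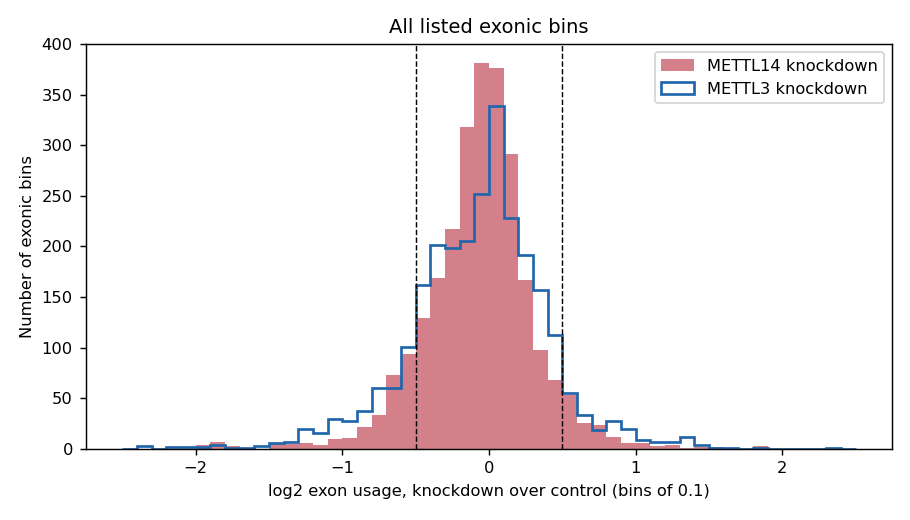
Number of exonic bins by log2 usage, knockdown over control, in steps of 0.1, for METTL14 knockdown (filled) and METTL3 knockdown (line). Dashed lines mark a size of 0.5, past which lay 144 METTL14 bins with higher and 278 with lower usage. Values beyond 2.5 in size, 2 for METTL14 and 11 for METTL3, lie outside the axis.

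The bins past 0.5 came from 214 models (33.6%), and 138 of these models had exactly 1 such bin. At the other end, 17 models had 5 or more and together held 128 of the 422 bins (30.3%). Only 3 bins reached a size of 2, all in joined models, and the largest sizes were those of bin 65 of the joined ATF2 and CHN1 model at 7.00 and bin 24 of the joined IER3IP1 and HDHD2 model at -6.73 in the authors' deposited table. The first of these is 9 bp long and stood at 7.27 in METTL3 knockdown, whereas the second stood at -0.59 there in the authors' deposited table. In models of 1 gene no METTL14 value exceeded 1.95 in size.

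At the upper end, the 15 highest bins of at least 20 bp, 1 per single-gene model, came from genes with varied roles. MPRIP, which links myosin phosphatase to actin filaments, had all 10 of its listed bins above 0. Its bin 30 (chromosome 17, 17067423 to 17067636) had 1.53 in METTL14 and 1.33 in METTL3 knockdown in the authors' deposited table, and bin 32, which holds a listed m6A site, had 0.85 and 0.73. The 2 bins farthest upstream, 5 and 6, had 0.59 and 0.45 in METTL14 knockdown but -0.31 and -0.49 in METTL3 knockdown in the authors' deposited table. The METTL14 values of MPRIP thus stayed on 1 side along the gene, and its METTL3 values did not.

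COPS8, a subunit of the COP9 signalosome that trims NEDD8 from ubiquitin ligases, had 4 neighbouring bins with METTL14 values of 1.26, 1.01, 1.01 and 1.18 in the authors' deposited table. The METTL3 values of these bins, 36 to 39 on chromosome 2, were 1.09, 0.84, 0.84 and 0.89 in the authors' deposited table, on the same side throughout. SPTLC1, a subunit of the enzyme that starts sphingolipid synthesis, also had 4 bins above 0 in METTL14 knockdown, 1.20 in bin 31, 0.95 in bin 24, 0.83 in bin 25 and 0.56 in bin 30 of the authors' deposited table. Bins 31 and 30 were at 0.90 and 0.94 in METTL3 knockdown, but bins 24 and 25 were at -0.49 and -0.43 in the authors' deposited table. SEC22B, a SNARE of transport between endoplasmic reticulum and Golgi, had 1.19 in bin 10 (chromosome 1, 145100692 to 145100984) in METTL14 and 0.43 in METTL3 knockdown in the authors' deposited table. ENAH, which promotes the growth of actin filaments, had 0.99 in bin 28 in METTL14 and 1.25 in METTL3 knockdown in the authors' deposited table.

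Among RNA-binding genes at the upper end, HNRNPA2B1, an hnRNP protein described as a nuclear reader of m6A, had 1.05 in bin 1 (chromosome 7, 26228802 to 26229547) in METTL14 and 0.82 in METTL3 knockdown in the authors' deposited table. On the minus strand this bin is the most 3' of those listed for the gene. HNRNPR bin 16, a stretch of 27 bp, had 1.51 in METTL14 and 0.74 in METTL3 but -1.75 in KD1 and -0.38 in KD2 in the authors' deposited table. PPM1G bin 7, from a gene for a nuclear protein phosphatase, likewise stood in the authors' deposited table at 1.90 in METTL14 and 1.40 in METTL3 but at -0.91 in KD1 and -0.37 in KD2. For these last genes the METTL and HNRNPG values lay on opposite sides of 0.

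**Figure D2:**
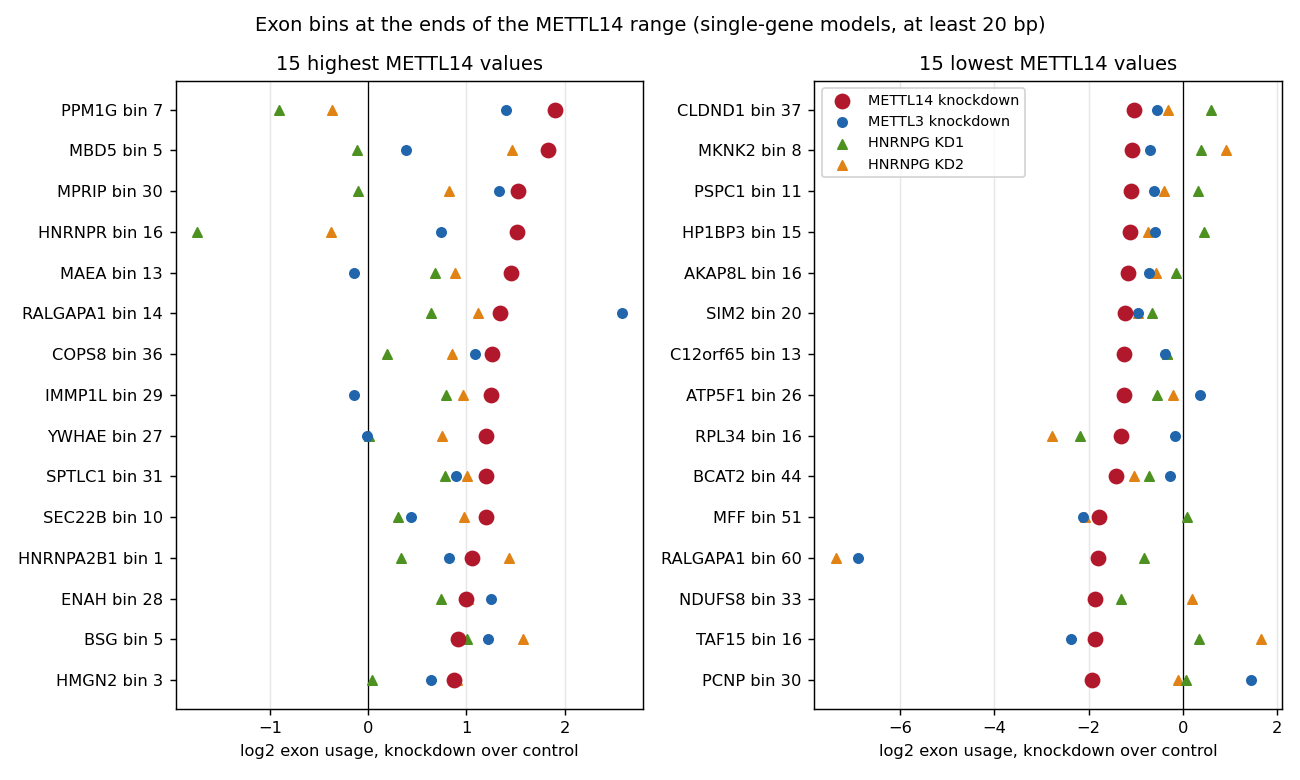
Log2 usage, knockdown over control, of the 15 highest (left) and 15 lowest (right) METTL14 bins of at least 20 bp in single-gene models, 1 bin per model, with METTL3, KD1 and KD2 values of the same bins. MAEA, IMMP1L and YWHAE stand between 1.20 and 1.45 in METTL14 knockdown with METTL3 values between -0.15 and -0.02, and PCNP has the METTL knockdowns on opposite sides. The horizontal scales of the panels differ.

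At the lower end, BCAT2, the mitochondrial branched-chain aminotransferase, had 3 adjacent bins of 14, 40 and 61 bp at -1.45, -1.43 and -1.27 in METTL14 knockdown in the authors' deposited table, against METTL3 values of -0.43, -0.26 and -0.21. M6PR, a mannose 6-phosphate receptor that sorts lysosomal enzymes, had all 5 listed bins below 0, at -0.84 to -1.44 in METTL14 and -0.29 to -0.83 in METTL3 knockdown in the authors' deposited table. The values below -1 in METTL14 knockdown were those of its bins 2, 3 and 4, which are only 2, 2 and 4 bp long. Bin 1, of 813 bp, had -0.99 in METTL14 and -0.29 in METTL3 knockdown. Its bin 33, at 1875 bp the longest of them, stood in the authors' deposited table at -0.84 in METTL14 and -0.83 in METTL3 knockdown. In both genes, then, every listed bin was below 0 in the METTL14 column.

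Splicing-related nuclear genes at the lower end included TAF15 and PSPC1. TAF15, a FET-family protein that binds RNA, had -1.87 in METTL14 and -2.37 in METTL3 knockdown in bin 16 (chromosome 17, 34147253 to 34147335), and 0.34 and 1.65 in KD1 and KD2, in the authors' deposited table. PSPC1, a core protein of paraspeckles, had -1.11 and -1.03 in bins 11 and 7 in METTL14 knockdown, but 0.00, -0.18 and 0.04 in bins 1, 2 and 3 in the authors' deposited table. In METTL3 knockdown those 3 bins stood at -0.88, -1.02 and -0.92 in the authors' deposited table, lower than bins 11 and 7 at -0.62 and -0.79. The lowest bins of PSPC1 therefore differed between the knockdowns.

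HP1BP3, a heterochromatin-associated protein related to linker histones, showed a like split on chromosome 1. In METTL14 knockdown bin 15 had -1.13 and bins 30 to 33 had -0.56 to -0.79, while bins 46 and 47 had -0.11 and -0.16 in the authors' deposited table. In METTL3 knockdown bins 46 and 47 were the lowest of the gene at -0.79 and -0.81 in the authors' deposited table, with the others at -0.37 to -0.60. NASP, a histone chaperone, had METTL14 values of -0.84, -0.81, -0.79 and -0.76 in bins 32 to 35 of the authors' deposited table, and bin 34 of these holds a listed m6A site. Farther along the gene its bins 38 and 67 had -0.38 and -0.16 in the authors' deposited table, so its low METTL14 values were grouped in the neighbourhood of the site. KD2 values were lower still, at -1.31 to -1.02 in bins 32 to 35 and -0.61 in bin 38, in the authors' deposited table. METTL3 values separated these bins less, at -0.53 to -0.42 in bins 32 to 35 and -0.40 in bin 38.

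Mitochondrial genes were also found at the lower end. NDUFS8, an iron-sulfur subunit of respiratory complex I, had -1.86 in METTL14 and -1.87 in METTL3 knockdown in bin 33 in the authors' deposited table. ATP5F1 (current symbol ATP5PB), subunit b of ATP synthase, had -1.25 in bin 26 in METTL14 knockdown but 0.36 in METTL3 knockdown in the authors' deposited table. MFF, which recruits the mitochondrial fission machinery, had -1.77 in METTL14, -2.13 in METTL3 and -2.09 in KD2 but 0.10 in KD1 in bin 51 (82 bp) in the authors' deposited table. The 2 bins that follow it directly, 52 and 53, had 0.39 and 0.32 in METTL14 knockdown in the authors' deposited table, so low usage ended at the bin boundary. C12orf65 (current symbol MTRFR), a mitochondrial translation release factor, had -1.24 in METTL14 and -0.39 in METTL3 knockdown in bin 13 in the authors' deposited table.

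Bins that moved in METTL14 but not in METTL3 knockdown were taken as those at least 0.5 in size in METTL14 and below 0.2 in METTL3 knockdown. There were 39 such bins with higher usage (1.48% of all bins) and 56 with lower usage (2.13%), together 95 (3.61%) in 55 models. They made up 22.5% of the 422 bins past 0.5 in METTL14 knockdown. Of the others, 156 had a METTL3 size of 0.2 up to 0.5, and 171 reached 0.5 in METTL3 knockdown as well. Among the 95, the median size was 0.61 in METTL14 and 0.10 in METTL3 knockdown, as the choice of bins requires, and METTL3 was on the same side of 0 in 55. The converse, METTL3 past 0.5 with METTL14 below 0.2, held for 205 bins, 34.7% of the METTL3 bins past 0.5. With no value per library, the difference between the knockdowns was not tested for any bin, and the METTL3 values nearest the limit were 0.20 inside and 0.21 outside.

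**Figure D3:**
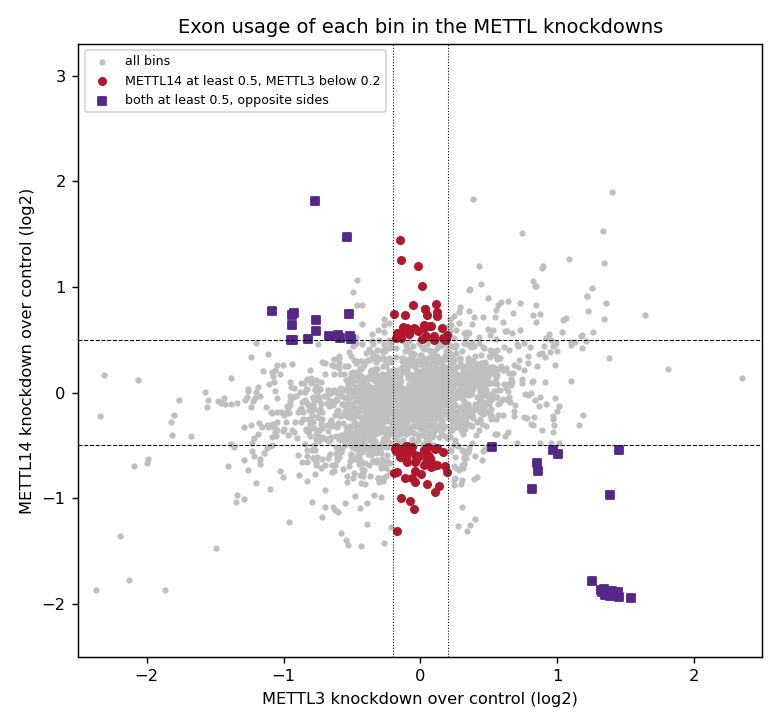
Log2 usage of each bin in METTL14 knockdown (vertical) against METTL3 knockdown (horizontal), both over the same control libraries. The 95 bins at least 0.5 in size in METTL14 and below 0.2 in METTL3 knockdown are circles, the 35 bins at least 0.5 in size on opposite sides are squares, and 12 bins with a value beyond 2.5 in size lie outside the axes.

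The highest of these bins belonged to MAEA, a subunit of the CTLH ubiquitin ligase. Bin 13 (chromosome 4, 1293318 to 1293757, 440 bp) had 1.45 in METTL14, -0.15 in METTL3, 0.68 in KD1 and 0.88 in KD2 in the authors' deposited table. The preceding bin 12 had 1.07 in METTL14 and -0.47 in METTL3 knockdown, and bin 46 at the other end of the gene had -0.28 and -0.60 in the authors' deposited table. IMMP1L, a subunit of the inner membrane peptidase of mitochondria, had 1.25 in METTL14 and -0.14 in METTL3 knockdown in bin 29 (chromosome 11, 31499048 to 31499306) as the authors' deposited table gives it, and 0.79 and 0.97 in KD1 and KD2. YWHAE, the epsilon member of the 14-3-3 phosphoprotein-binding family, had 1.20 in METTL14 and -0.02 in METTL3 knockdown in bin 27 (chromosome 17, 1302172 to 1302310) as the authors' deposited table gives it, with 0.00 in KD1 and 0.75 in KD2. For MAEA bin 13 and IMMP1L bin 29, the METTL14 values thus stood with both HNRNPG knockdowns on the upper side and apart from METTL3. IMMP1L bin 30 also met the limits, with 0.74 in METTL14 and -0.12 in METTL3 knockdown in the authors' deposited table. Its HNRNPG values were on opposite sides, at -0.37 in KD1 and 0.905 in KD2.

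Further bins with higher usage in METTL14 and a METTL3 value near 0 came from genes with varied roles. CNOT4, a ubiquitin ligase associated with the CCR4-NOT deadenylase, had 0.84 and 0.76 in bins 11 and 10 in METTL14 and 0.11 and 0.12 in METTL3 knockdown in the authors' deposited table. UBE2J2, a ubiquitin-conjugating enzyme of the endoplasmic reticulum, had 0.83 and -0.06 in bin 41 in the METTL14 and METTL3 columns of the authors' deposited table. WAC, an adaptor for ubiquitination of histone H2B, had 0.74 in METTL14 and -0.19 in METTL3 knockdown in bin 21 in the authors' deposited table. HMGN2, a nucleosome-binding protein, had 0.80 and 0.03 in bin 1 in METTL14 and METTL3 knockdown in the authors' deposited table. Only this bin of HMGN2 met the limit on METTL3. Its bins 3, 4 and 6 had 0.87, 0.86 and 0.67 in METTL14 and 0.64, 0.59 and 0.61 in METTL3 knockdown. DEPDC1 bin 7 had 0.80 in METTL14 and 0.04 in METTL3 knockdown but -0.90 in KD1 and -1.37 in KD2 in the authors' deposited table, which made it the bin of the 10 highest with the lowest HNRNPG values. ARIH2, a ubiquitin ligase of the RING-between-RING class, had 6 consecutive bins between 0.53 and 0.73 in METTL14 knockdown in the authors' deposited table. The METTL3 values of these bins, 21 to 26, were 0.03 to 0.29, KD1 values were -0.62 to -1.02 and KD2 values 0.19 to 0.41 in the authors' deposited table.

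Listed m6A sites lay inside bins with METTL14 values past 0.5 and METTL3 values near 0 in EIF4E and ELAVL1. EIF4E, the cap-binding translation factor, was listed under a second model name, EIF4E.1, and its bin 29 (chromosome 4, 99830829 to 99831111) had 0.73 in METTL14, 0.05 in METTL3, -0.17 in KD1 and 0.50 in KD2 in the authors' deposited table. ELAVL1, the AU-rich element binding protein HuR, had 0.51 in METTL14 and 0.01 in METTL3 knockdown in bin 18 (chromosome 19, 8055900 to 8056527) as the authors' deposited table gives it. Toward the 3' end, ELAVL1 bins 1 and 3 had 0.27 and 0.34 in METTL14 and 0.41 and 0.51 in METTL3 knockdown in the authors' deposited table, so the knockdown with the higher value differed along the gene.

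On the lower side, RPL34, which belongs to the large ribosomal subunit, had -1.31 in METTL14 and -0.17 in METTL3 knockdown in bin 16 (chromosome 4, 109543361 to 109543670) as the authors' deposited table gives it. Its HNRNPG values were lower still, -2.19 in KD1 and -2.78 in KD2 in the authors' deposited table. Bin 10 of the same gene had 0.50 in METTL14 and -0.93 in METTL3 knockdown in the authors' deposited table. GGA1, a clathrin adaptor of the trans-Golgi network, had all 4 of its bins below -0.5 in METTL14 knockdown, at -0.74, -0.86, -1.03 and -0.99 in bins 17, 22, 30 and 31 on chromosome 22 in the authors' deposited table. METTL3 values were 0.05, -0.08 and -0.14 in the last 3 of them and 0.86 in bin 17 in the authors' deposited table. The authors' deposited table gave KD2 values of -0.90 to -1.98 in all 4 bins, and KD1 values of -0.56 in bin 17 and 0.08, 0.12 and 0.05 in the others.

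NKIRAS1, a Ras-like inhibitor of NF-kB signalling, had the most such bins among single-gene models on the lower side. Its bins 4, 5, 7, 8, 9 and 10 had METTL14 values of -0.71, -0.69, -0.51, -0.66, -0.64 and -0.60 in the authors' deposited table, and bins 4 and 9 each hold a listed m6A site. METTL3 values were between -0.04 and 0.09 in all 8 bins of the gene, and KD1 values between -0.05 and 0.29, in the authors' deposited table. The outer bins 1 and 26 had -0.02 and 0.07 in METTL14 knockdown in the authors' deposited table, so that low usage was confined to the listed bins between them. NAA50, an N-terminal acetyltransferase, had -0.89 in METTL14 and 0.14 in METTL3 knockdown in bin 7 and 0.57 and 1.04 in bin 16, in the authors' deposited table. PKM2 (current symbol PKM), the pyruvate kinase whose alternative exons distinguish its M1 and M2 forms, had -0.76 in METTL14 and -0.19 in METTL3 knockdown in bin 19 (chromosome 15, 72497988 to 72498437) as the authors' deposited table gives it.

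Other single-gene bins on the lower side were PKP4 bin 75, CLSTN1 bin 60, MORF4L1 bin 55, MBD5 bin 16 and RPRD1A bin 18. PKP4, a plakophilin-related protein of cell junctions, had -0.74 in METTL14 and -0.04 in METTL3 but -1.257 in KD1 and -1.002 in KD2 in the authors' deposited table. CLSTN1, a transmembrane adaptor of kinesin cargo, had 8 of 9 bins past 0.5 on the lower side in METTL14 knockdown, and only bin 60 met the limit on METTL3, with -0.75 in METTL14 and 0.19 in METTL3 knockdown in the authors' deposited table. MORF4L1, a chromodomain protein that binds methylated histone H3, had -0.69 and -0.86 in bins 55 and 54 in METTL14 and 0.18 and 0.30 in METTL3 knockdown in the authors' deposited table. RPRD1A, which binds the tail of RNA polymerase II, had -0.66 in METTL14 and -0.10 in METTL3 knockdown in the authors' deposited table.

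MBD5, a protein of the methyl-CpG-binding domain family, had METTL14-only bins on both sides of 0, as the plot of values along 6 gene models shows. Bins 1 to 4 had 0.58, 0.62, 0.54 and 0.56 in METTL14 knockdown with METTL3 values of -0.02, 0.03, 0.04 and -0.09, and bin 5 (chromosome 2, 148798775 to 148799298) stood at 1.83 in METTL14 and 0.38 in METTL3 knockdown, by the authors' deposited table. Toward the 3' end, bins 9, 16, 17 and 18 had -0.54, -0.68, -0.62 and -0.82 in METTL14 knockdown with METTL3 values of -0.09, 0.12, 0.07 and 0.39 in the authors' deposited table. Values in METTL14 knockdown thus separated the 5' bins of MBD5 from its 3' bins, and the 5' bins 1 to 5 were at 0.41 to 1.46 in KD2 but at -0.07, 0.09, 0.08, -0.39 and -0.12 in KD1 in the authors' deposited table.

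**Figure D4:**
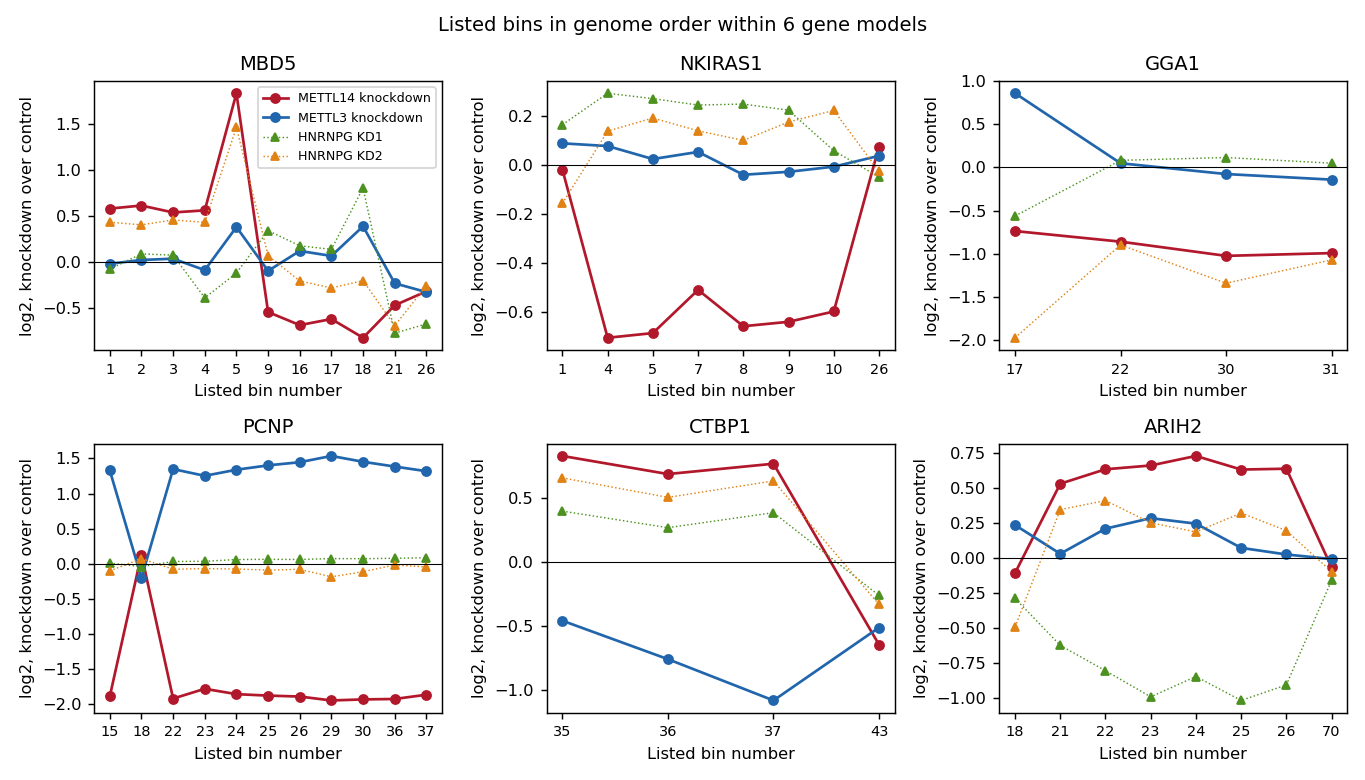
Log2 usage, knockdown over control, of every listed bin in 6 gene models, in genome order, for METTL14, METTL3, KD1 and KD2. NKIRAS1 bins 4 to 10 lie between -0.51 and -0.71 in METTL14 knockdown with METTL3 values near 0, MBD5 separates into higher 5' and lower 3' bins, and 10 of 11 PCNP bins lie below -1.7 in METTL14 and above 1.2 in METTL3 knockdown. The vertical scales differ between panels.

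Joined models held 42 of the 95 METTL14-only bins, and 8 models with 3 or more such bins, joined or not, held 42. The joined ATF2 and CHN1 model had 12, of which 3 were higher, at 0.50 to 0.51, and 9 lower, at -0.52 to -0.61, in the authors' deposited table. All 9 lower bins were among bins 77 to 117, and the 3 higher ones were bins 11, 12 and 15. Whether these groups belong to different genes of the joined model was not determined here, so the split is not read as a pattern along 1 transcript. The joined PDCD6 and AHRR model had 5 lower bins between -0.55 and -0.69, in bins 70 to 76, with KD1 at 0.25 to 0.41 and KD2 at 0.44 to 0.59 in the authors' deposited table. All 3 listed bins of the joined VPS36 and THSD1 model were higher, at 0.56, 0.56 and 0.60 in METTL14 and -0.08, -0.17 and -0.04 in METTL3 knockdown in the authors' deposited table.

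The METTL knockdowns lay past 0.5 on opposite sides of 0 in 35 bins of 20 models (1.33% of all bins), 17 with METTL14 higher and 18 with METTL14 lower. PCNP, a nuclear protein with PEST degradation motifs, accounted for 10 of the 18. Its 10 bins had METTL14 values from -1.78 to -1.95 and METTL3 values from 1.25 to 1.54, while KD1 was 0.01 to 0.09 and KD2 -0.02 to -0.19, in the authors' deposited table. These bins numbered 15 to 37 along chromosome 3, and bin 18 between them stood at 0.13 in METTL14 and -0.20 in METTL3 knockdown in the authors' deposited table. PCNP was therefore near 0 in both HNRNPG comparisons and far from 0 in both METTL comparisons.

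Among the 17 bins with METTL14 higher and METTL3 lower, the joined EEF1D and NAPRT1 model, which includes a translation elongation factor subunit, had the most with 4. Its bins 8, 9, 10 and 127 had 0.51, 0.59, 0.64 and 0.54 in METTL14 and -0.59, -0.76, -0.94 and -0.67 in METTL3 knockdown in the authors' deposited table. CTBP1, PPA2 and PHF10 had 2 each. CTBP1, a transcriptional corepressor, had 0.83, 0.69 and 0.77 in METTL14 and -0.46, -0.76 and -1.09 in METTL3 knockdown in bins 35, 36 and 37 in the authors' deposited table, of which bin 35 was under 0.5 in METTL3, whereas bin 43 was at -0.65 and -0.51. PPA2, the mitochondrial inorganic pyrophosphatase, had 0.76 and 0.74 in METTL14 and -0.92 and -0.94 in METTL3 knockdown in bins 55 and 56 in the authors' deposited table. PHF10, a subunit of a SWI/SNF chromatin remodelling complex, had 0.51 and 0.50 in METTL14 and -0.50 and -0.94 in METTL3 knockdown in bins 1 and 5 of the authors' deposited table. Its bin 9, which holds a listed m6A site, was lower in both, at -0.54 and -0.58 in the authors' deposited table.

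With METTL14 lower and METTL3 higher, FDXR, the mitochondrial ferredoxin reductase, had -0.54 and 1.45 in bin 16 in the authors' deposited table. MAP3K7, the kinase TAK1, had -0.54 and 0.97 in METTL14 and METTL3 knockdown in bin 25, and the zinc finger gene ZNF664 had -0.58 and 1.01 in bin 56, in the authors' deposited table. CNIH4, a cornichon protein of export from the endoplasmic reticulum, had all 12 bins below 0 in METTL14 and above 0 in METTL3 knockdown, at -0.23 to -0.83 and 0.24 to 0.36 in the authors' deposited table. Its METTL3 values were all under 0.5 and it is therefore not among the 35 bins.

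By bin class, METTL14 values past 0.5 were found in 20.3% of the 733 bins of at least 500 bp, 15.0% of 961 bins of 100 to under 500 bp, 12.3% of 699 bins of 20 to under 100 bp and 17.8% of 242 bins under 20 bp, against 16.0% of all bins. Bins of at least 500 bp had 47 higher and 102 lower values past 0.5, and 25.5% of them were in joined models, against 41.3% to 48.2% in the shorter classes. Single-gene models had 18.8% of bins past 0.5 and joined models 11.7%. Models with at least 10 listed bins had 12.1% and models with 1 listed bin 20.9%. The order of the length, joining and model-size classes turned when 1 bin per model, the one with the largest METTL14 size, was counted. A model with more bins has more chances to reach 0.5 when counted that way, and joined models list more bins each.

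Bins near listed m6A sites were more often below 0 in METTL14 knockdown. Of the 96 bins with a site inside, 65.6% were lower, of the 366 within 1000 bp of a site 62.6%, of the 928 bins more than 1000 and up to 10000 bp away 55.8%, and of the 1245 farther bins 54.0%. The median METTL14 values of these classes were -0.13, -0.10, -0.04 and -0.03. The METTL3 shares were 64.6%, 58.5%, 58.2% and 47.4% in the same order of distance. HNRNPG KD1 had 54.2%, 55.7%, 57.4% and 50.9%, and KD2 had 51.0%, 56.0%, 57.1% and 57.2%. Bins within 1000 bp of a site or holding one were lower 8.44 percentage points more often than the rest in METTL14 knockdown. No test was made, since bins of a model share reads.

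**Figure D5:**
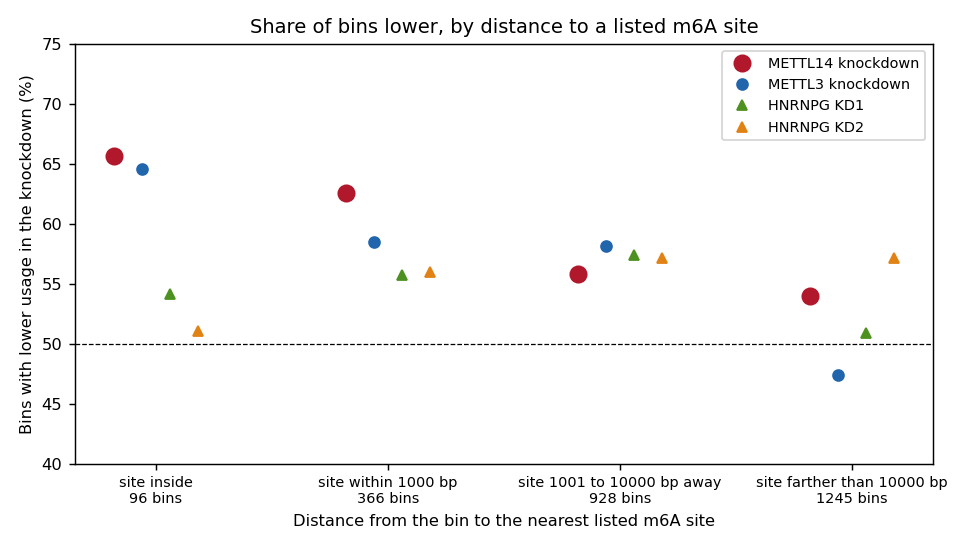
Share of bins with lower usage in the knockdown, in percent, by distance from the bin to the nearest listed m6A site of its model, for METTL14, METTL3, KD1 and KD2. The METTL14 share is 65.6% with a site inside and 54.0% beyond 10000 bp. The vertical axis runs from 40 to 75% and the dashed line marks 50%.

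Bin length and joining moved with distance: the median length was 757 bp with a site inside and 127 to 156 bp in the other classes, and 47.9% of the farthest bins were in joined models against 30.1% to 33.6% in the nearer classes. Their part in the result was not tested. Among bins of at least 500 bp alone, 71.4% of 63 bins with a site inside, 68.8% of 77 within 1000 bp, 57.4% of 258 at over 1000 to 10000 bp and 55.2% of 335 farther bins were lower. Among shorter bins the shares were 54.5% of 33, 60.9% of 289, 55.2% of 670 and 53.5% of 910. In single-gene models the shares were 64.6%, 63.4%, 53.5% and 49.5% from site inside to farther than 10000 bp. In the direction of transcription, 58.6% of the 1361 bins downstream of every listed site of their model were lower, 53.0% of the 944 upstream of every site and 52.1% of the 234 between sites.

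The share past 0.5 followed distance less plainly than the share below 0. It was 20.8% with a site inside, 16.7% within 1000 bp, 18.4% at over 1000 to 10000 bp and 13.7% beyond. The bins with a site inside had 6 values past 0.5 on the higher side and 14 on the lower. In single-gene models the share past 0.5 within 1000 bp of a site was 0.959 times that of the other bins. RBM39, a splicing factor related to U2AF, held a site in a bin with 0.81 in METTL14 and 0.29 in METTL3 but -2.15 in KD1, bin 81 (chromosome 20, 34323357 to 34324434) as the authors' deposited table gives it. PDXK, pyridoxal kinase, had 0.72 in METTL14 and 0.39 in METTL3 knockdown in bin 26 in the authors' deposited table. Low values with a site inside, beside those of NASP and NKIRAS1, belonged to HP1BP3 bin 32 at -0.79, RPL31 bin 19 at -0.68 and PCNT bin 87 at -0.65 in METTL14 knockdown, with METTL3 values of -0.37, -0.63 and -0.34, in the authors' deposited table. RPL31 is a protein of the large ribosomal subunit and PCNT is the centrosomal scaffold pericentrin.

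Within genes, values past 0.5 on both sides were uncommon. Of 199 single-gene models with at least 3 listed bins, 20 had all bins above 0, 35 had all bins below 0 and 144 had bins on both sides or at 0. The median SD over the bins of such a model was 0.20, and the SD of the model medians was 0.38. These measures are unlike, because extreme models such as PCNP, with a median of -1.89, widen the second more than the first. Whether a change in the level of the whole gene enters these values was not tested. Bins past 0.5 on both sides were found in 9 single-gene models. RALGAPA1, the catalytic subunit of a Ral GTPase-activating complex, had 1.34 in bin 14 and -1.79 in bin 60 in METTL14 knockdown in the authors' deposited table, beside 2.59 and -6.90 in METTL3 knockdown. AKAP8L, a nuclear A-kinase anchoring protein, had 0.73 in bin 22 and -1.17 in bin 16 in METTL14 knockdown, and 0.12 and -0.72 in METTL3 knockdown, in the authors' deposited table. EIF3K, a subunit of the translation initiation factor eIF3, had 0.58 in bin 20 and -0.97 in bin 27 in METTL14 and 0.63 and -0.48 in METTL3 knockdown in the authors' deposited table.

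Gene lists of the splicing apparatus had different counts. Among 13 models of other RNA-binding splicing regulators, 2 of 73 bins were past 0.5 on the higher and 22 on the lower side, 32.9% in all, against 16.0% of all bins. DDX5, an RNA helicase, gave 6 of those 22, at -0.51 to -0.62 in METTL14 and -0.24 to -0.46 in METTL3 knockdown in the authors' deposited table. The joined SNHG4 and MATR3 model, which includes the nuclear matrix protein matrin 3, had all 19 bins below 0 and 10 past 0.5, at -0.51 to -0.68 in METTL14 and -0.45 to -0.68 in METTL3 knockdown in the authors' deposited table. DDX5, SNHG4 with MATR3, TAF15 and PSPC1 thus held most of the list's low bins, with a median over the whole list of -0.09 against -0.04 over all bins.

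SR proteins and SR-related factors had 5 higher and 2 lower bins past 0.5 among 33 bins of 8 models (21.2%, against 16.0% of all bins). The median was 0.13, and 4 models had a median above 0 and 4 below. SRSF1, a founding SR protein, had -0.79 in METTL14 and -0.26 in METTL3 knockdown in bin 23 (2573 bp) in the authors' deposited table, and ACIN1 had -0.55 and -0.35 in bin 32. The joined C7orf55 and LUC7L2 model, which includes a U1 snRNP-associated factor, gave 4 of the 5 higher bins. These were bins 36 to 39, at 0.54 to 0.66 in METTL14 knockdown, with METTL3 at -0.13 to -0.60 in the authors' deposited table. It also gave 16 of the 33 bins, 15 of them above 0, so the list leaned on a joined model. The remaining higher bin was that of the phosphatase gene PPM1G. The core spliceosome list had 0 higher and 6 lower bins past 0.5 among 28 bins (21.4%, against 16.0% of all bins). SRRT, a partner of the nuclear cap-binding complex rather than a spliceosome protein, gave 4 of the 6, at -0.52 to -0.66 in METTL14 and -0.61 to -0.77 in METTL3 knockdown in the authors' deposited table, in bins of 1 to 189 bp. PRPF8, the central protein of the spliceosome, had -0.63 in METTL14 and -1.99 in METTL3 but 1.55 in KD1 and 0.92 in KD2 in bin 48 in the authors' deposited table. The hnRNP list had 2 higher and 0 lower bins past 0.5 among 38 bins (5.26%, against 16.0% of all bins), the HNRNPA2B1 and HNRNPR bins given above. Its median was -0.24 and 76.3% of its bins were below 0, against 56.2% of all bins. The joined PRR13 and PCBP2 model listed 20 of the 38 bins, and of the 8 models 4 had a median above 0 and 4 below. Of the m6A writers, erasers and readers, only HNRNPA2B1 and HNRNPC had listed bins, and HNRNPC bin 51 had -0.03 in METTL14 and -0.28 in METTL3 knockdown in the authors' deposited table.

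In translation, initiation and elongation factors and ribosomal proteins had different counts. Translation factors had 7 higher and 2 lower bins past 0.5 among 60 bins of 9 models (15.0%, against 16.0% of all bins), with a median of 0.10. The joined EEF1D and NAPRT1 model gave 5 of the 7 higher bins and 27 of the 60 bins, so that the higher count leaned on a joined model. Its higher bins 8, 9, 10 and 21 lay between 144657361 and 144659347 on chromosome 8, apart from bin 127 at 144678300. Which of the joined genes each bin belongs to was not determined here, so these bins may not all be of a translation factor. A median above 0 was found in 8 of the 9 models, while over all models the median was below 0 in 291 of 510 single-gene and 80 of 126 joined models. EIF4E.1 and EIF3K, given above, had the leading values among single-gene models. Ribosomal proteins had 2 higher and 12 lower bins past 0.5 among 136 bins of 19 models (10.3%, against 16.0% of all bins), and 14 of the 19 models had a median below 0. The joined RPL37 and SNORD72 model had 1.81 in METTL14 and -0.77 in METTL3 knockdown in bin 24 in the authors' deposited table, and the joined RPL13 and SNORD68 model had -1.09 and 0.31 in bin 39. Polyadenylation, export and decay factors had 3 higher and 7 lower bins past 0.5 among 54 (18.5%).

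Among 24 models of the ubiquitin and proteasome system, 9 of 74 bins were past 0.5 on the higher and 13 on the lower side. The share was 29.7%, against 16.0% of all bins, and the median was -0.16. The joined ANAPC11 and NPB model, with all 7 of its bins between -0.55 and -0.97 in METTL14 knockdown in the authors' deposited table, gave 7 of the 13, and COPS8 gave 4 of the 9. PSMB7, a catalytic subunit of the proteasome, had -0.58, -0.66 and -0.59 in METTL14 and -0.51, -0.33 and -0.46 in METTL3 knockdown in bins 1, 2 and 5 in the authors' deposited table. FZR1, a coactivator of the APC/C ubiquitin ligase, had 0.74 in METTL14 and 1.65 in METTL3 knockdown in bin 7 in the authors' deposited table. Chromatin regulators had 6 higher and 12 lower bins past 0.5 among 65 bins of 19 models (27.7%, against 16.0% of all bins). HDAC1, a histone deacetylase, had -0.54, -0.80 and -0.29 in METTL14 and -0.32, -0.31 and -0.57 in METTL3 knockdown in bins 13, 14 and 20 in the authors' deposited table. The MBD5 bins gave 9 of the 18 chromatin bins past 0.5, so that list leaned on 1 gene.

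Over all bins, 5.46% were past 0.5 on the higher and 10.6% on the lower side, 16.0% in all. Cytoskeletal genes had 11 higher and 2 lower bins past 0.5 among 109 bins of 10 models (11.9%), and MPRIP gave 6 of the 11. MYH10, a nonmuscle myosin heavy chain, was on the other side with -0.74 in METTL14 and -1.26 in METTL3 knockdown in bin 7 in the authors' deposited table. Membrane trafficking genes had 3 higher and 7 lower bins past 0.5 among 49 (20.4%), and M6PR gave 5 of the 7, among them its bins 2, 3 and 4 of 2 to 4 bp. The list of kinases of MAPK, mTOR and Ras or Ral signalling had 4 higher and 2 lower of 27 (22.2%). Of these, YWHAE bin 27 and RALGAPA1 bins 14 and 60 are from genes that do not encode kinases. MAPK9, the kinase JNK2, was among the higher, with 0.85 in METTL14 and 1.35 in METTL3 knockdown in bin 14 in the authors' deposited table. Glycolysis genes had 3 higher and 3 lower of 38, 15.8% against 16.0% of all bins. BSG bin 5 was among the higher, at 0.92 in METTL14 and 1.22 in METTL3 knockdown in the authors' deposited table.

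The list of mitochondrial respiration and mitochondrial ribosome genes does not include IMMP1L or PPA2, nor MFF or C12orf65, which were given above at the lower end. It had 0 higher and 5 lower bins past 0.5 among 68 bins of 15 models, NDUFS8 and ATP5F1 among them. This was 7.35%, against 16.0% of all bins. DNA repair genes had 1 higher and 1 lower of 37 (5.41%). The lower one was bin 43 of DDB2, a sensor of ultraviolet damage, with -0.57 in METTL14 and -1.14 in METTL3 knockdown in the authors' deposited table. Cell cycle genes had 1 higher and 0 lower bins past 0.5 among 15 (6.67%). The higher one was RAN bin 32, from the GTPase of nuclear transport, with 0.59 in METTL14 and 0.62 in METTL3 knockdown in the authors' deposited table.

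Bins past 0.5 in METTL14 knockdown were read in the HNRNPG knockdowns, whose control libraries were separate. Of the 144 bins with higher usage, 94 (65.3%) were higher in both KD1 and KD2, against 50.0% of all bins above 0 in METTL14 knockdown, and 17 (11.8%) were lower in both, against 25.9%. Of the 278 with lower usage, 172 (61.9%) were lower in both, against 55.8% of all bins below 0, and 34 (12.2%) were higher in both, against 17.8%. Medians over the higher bins were 0.24 in KD1 and 0.56 in KD2, and over the lower bins -0.18 and -0.38. For the METTL14-only bins, 24 of 39 higher bins (61.5%) were higher in both HNRNPG knockdowns and 28 of 56 lower bins (50.0%) were lower in both. Among the higher METTL14-only bins, 3 (7.69%) were lower in both HNRNPG knockdowns, against 25.9% of all bins above 0 in METTL14 knockdown. Among the lower METTL14-only bins, 13 (23.2%) were higher in both, against 17.8% of all bins below 0 in METTL14 knockdown. Of this last kind were the 6 NKIRAS1 bins from 4 to 10, the 5 lower bins of the joined PDCD6 and AHRR model, and NAA50 bin 7. KD1 and KD2 shared their own controls, so that they do not count as independent readings. Bins of 1 model also move together, and no difference between these shares was tested.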

How the data were processed

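RNA-seq libraries were stranded mRNA libraries, per the labels' protocols. The tools in the submitters' processing notes are TopHat 1.1.4, Bowtie 1.0.0, Cuffdiff, Cufflinks and Trimmomatic, with hg19 as the build and no role given, and the sample descriptions name DEXSeq with no version. For each bin the authors deposited a log2 ratio, control over knockdown, per the file headers. Normalization and the rule for listing a bin: not given in the sources used here. Depth per library is unknown and replicates were combined.

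The sign was turned. A bin was counted at a size of at least 0.5, and METTL3 below 0.2 in size for METTL14-only bins. No test was fitted, because the table gives 1 value per comparison. Counting was tested on simulated data. Named bins, of at least 20 bp and 1 per single-gene model and direction, were the 15 highest and lowest METTL14 values, the 10 highest and lowest METTL14-only bins, the 8 widest two-sided models, the 5 highest and lowest joined bins and bins with a site inside, 4 per list and the most one-sided models. Some were left out for length, and some items are not reported here. Further bins of those models, opposite bins and ARIH2, CNIH4, PPA2, FDXR, ZNF664, ELAVL1, DDX5, PSMB7, FZR1, SRRT, EEF1D with NAPRT1 and other list members were chosen after their values were seen. The members, lists and rule were chosen with earlier results of these data known. Of 780 symbols, 677 were current, 87 were older symbols with 1 current symbol and 16 were not matched. Alternatives were other sizes, bins of at least 20 bp, single-gene models, median-centred columns and other METTL3 limits. A further alternative, chosen after seeing the data, was 1 bin per model, the one with the largest METTL14 size. Python 3.11.15, numpy 2.4.6, pandas 2.3.3, scipy 1.17.1 and matplotlib 3.10.9 were used.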

Additional observations from a re-analysis of the deposited data

How the results depend on the processing

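No paired analysis was possible because the table holds 1 value per comparison, and for the same reason leaving out a library was not run. Over 61 alternatives for 11 values, 24 stayed close to the value given, 29 moved further and 8 changed direction, 1 of them by construction. Bins past the size, 144 higher and 278 lower, became 311 and 576 at a size of 0.3, 23 and 45 at 1, 71 and 143 with 1 bin per gene model, and 79 and 147 gene models with such a bin. The share of all bins lower, 56.2%, was 53.8% in single-gene models, 60.7% with 1 bin per model and 49.9% once each column's median was subtracted, a value that this subtraction fixes by construction and that says nothing about the excess. The lower share past 0.5, 65.9%, was 56.3% after that subtraction. METTL14-only bins, 39 higher and 56 lower, became 97 and 139 at 0.3, 4 and 3 at 1, 24 and 29 in single-gene models, 15 and 22 with 1 bin per model, 21 and 28 with METTL3 below 0.1 and 80 and 171 with METTL3 below 0.5. With METTL3 below 0.3 the lower ones were 90.

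The ratio of shares past the size for bins of at least 500 bp over shorter bins, 1.42, was 0.556 at a size of 1 and 0.971 with 1 bin per model. For bins within 1000 bp of a site over the rest, 1.12 became 0.373 at 1, 0.959 in single-gene models and 0.959 with 1 bin per model. For joined over single-gene models, 0.620 became 0.782 at 0.3, 0.442 at 1 and 1.27 with 1 bin per model. For models of at least 10 bins over smaller ones, 0.649 became 0.777 at 0.3, 0.901 in single-gene models and 1.63 with 1 bin per model. With the largest change taken from each model, a model with more bins has more chances to reach the size. Joined models list more bins each, so this holds for them too. The gap in the lower share near sites, 8.44 points, was 13.5 with 1 bin per model and 8.51 to 12.2 otherwise. Taking 1 bin per model, and all alternatives for this gap, were chosen after seeing the data. Beyond the ways these alternatives are built, the cause was not tested. No depth or error per bin is known, so the precision of each value is unknown.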
